A study of Solanum lycopersicum with 8 samples.

Results

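In tomato (Solanum lycopersicum) leaves, 86 genes above a low expression limit had transcript levels at 6 h under 0.4 times those at 2 h. They met this both in control leaves and in leaves treated with tunicamycin. The 58 genes described here were left after names such as heat shock, REVEILLE, WRKY and photosystem were taken out. Tunicamycin is an antibiotic that blocks the N-linked glycosylation of proteins and so causes stress in the endoplasmic reticulum. The 58 genes included regulators of day-length response (cyclic dof factors, CONSTANS-like proteins and LNK1), light-harvesting and carbon-fixing proteins, the enzymes of ethanol fermentation, beta-amylases, and a set of cuticle and cell wall proteins. Total leaf RNA was sequenced in 4 groups of 2 biological replicates, 8 libraries in all: control at 2 h, control at 6 h, tunicamycin at 2 h and tunicamycin at 6 h. The cultivar, plant age, tunicamycin dose and clock hour of harvest are not stated in the labels, and nothing says whether replicates came from separate plants or pools.

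The members were chosen from the measured values. For each gene symbol the transcript with the most counts was taken, and levels were set as CPM, the counts of a transcript scaled to a common library total. A gene was kept when, in each arm, the higher of the 6 h levels was under 0.4 times the lower of the 2 h levels, and when its mean level at 2 h was at least 2 CPM. Of 28900 symbols, 15639 had that mean and 86 also met the ratio. Names taken out beforehand, among them heat shock, REVEILLE, WRKY, NAC, ethylene-responsive, auxin, calcium and photosystem genes, removed 28 of these. The 58 that were left were 0.385% of the 15072 genes that could have been chosen. The difference between 6 h and 2 h is therefore a description here, with no test. The labels give hours only, so the time since treatment, the hour of the day and handling between harvests cannot be told apart. In bulk leaf RNA, fewer cells of a type and less RNA per cell cannot be told apart either.

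Many leaf transcripts cycle over the day. In Arabidopsis, cyclic dof factors are morning repressors of CONSTANS, the gene that links day length to flowering, and LNK proteins are coactivators of the REVEILLE clock factors. Chlorophyll a-b binding proteins hold the pigments that gather light for photosynthesis, and Rubisco activase frees the carbon-fixing enzyme Rubisco of bound inhibitors. Pyruvate decarboxylase and alcohol dehydrogenase turn pyruvate into acetaldehyde and then ethanol when respiration is short of oxygen.

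Depth was uneven: the smallest library had 4689769 counts and the largest 122784850. Within a group the larger library had 5.49 to 9.98 times the counts of the smaller (called deeper and shallower from here on), and the deeper was replicate 2 in the control groups and replicate 1 in the tunicamycin groups. A count of 3 corresponded to between 0.0244 and 0.640 CPM in these libraries, which covers counting error only. Tunicamycin 6 h replicate 2 stood apart in ribosomal RNA, at 2.53% of its counts against 0.0837% to 0.654% elsewhere. The summed level of 25 mesophyll markers (Rubisco and chlorophyll a-b binding genes) was 24855 to 42935 CPM across the libraries, as the leaf label would have it. The 30 epidermis markers summed to 372 to 452 CPM at 2 h and 304 to 411 CPM at 6 h, and the 44 vascular markers to 855 to 1029 and 809 to 933 CPM. The 23 markers of dividing cells summed to 997 to 1447 and 595 to 1535 CPM. These ranges overlapped between the times for every marker list. The part of cell makeup in the members' levels was not tested.

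Together the 58 members made up 4205 and 2854 CPM in the control leaves at 2 h (replicate 1, then replicate 2, an order kept throughout) and 491 and 564 CPM at 6 h. In tunicamycin leaves they made up 4209 and 4769 CPM at 2 h and 586 and 567 CPM at 6 h. All 4 libraries of 6 h lay far below all 4 of 2 h, which the rule fixed within each arm. The ratios that follow describe the chosen set in the same way. Per gene, the mean at 2 h was 2.82 to 67.3 times that at 6 h in control leaves (median 7.45) and 2.85 to 76.5 times in tunicamycin leaves (median 9.37). The median log2 ratio of 6 h to 2 h was -2.90 and -3.23, against -0.07 and -0.02 over all genes that could have been chosen. The time difference was larger in tunicamycin leaves for 38 members and larger in control leaves for 20. In the fit described further below, 19 members fell more in control leaves, a sign that 48.5% of all transcripts had. Between the deeper libraries alone 16 members had that sign, and between the shallower ones 29, so the split did not hold at both depths. The ratio was met in control leaves by 0.916% of the 15072 genes and in tunicamycin leaves by 1.2%, with 80 genes meeting it in control leaves alone and 123 in tunicamycin leaves alone. At 6 h, 7 members had no count in tunicamycin replicate 2 and 1 had none in control replicate 2, so several of the steepest ratios rest on few reads. The steep ratio of ADH2 in control leaves, 54.6, rests on 96 and 365 counts at 6 h.

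**Figure D1:**
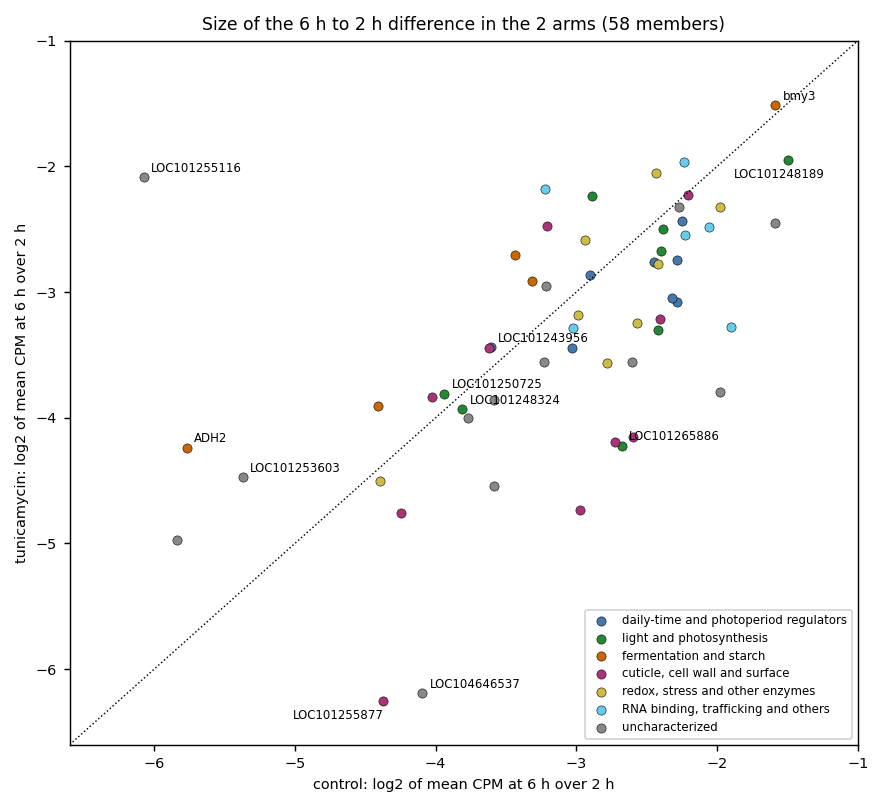
Log2 ratio of mean CPM at 6 h to mean CPM at 2 h in control leaves (x axis) and in tunicamycin leaves (y axis), 1 point for each of the 58 members, coloured by role, with the line of equal ratios dotted. Points below the line, 38 of 58, had the larger time difference in tunicamycin leaves. Between the shallower libraries alone, 29 of the 58 had the larger difference in control leaves.

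A group sorted as regulators of daily time and flowering held 8 members. Their 2 h levels were 4.76 to 12.2 times those at 6 h in control leaves and 5.39 to 10.9 times in tunicamycin leaves. LOC101262001, a cyclic dof factor 1, stood at 74.8 and 63.3 CPM in control leaves at 2 h and 11.3 and 13.95 CPM at 6 h, and at 151 and 161 CPM in tunicamycin leaves at 2 h and 20.01 and 25.9 CPM at 6 h. The ratio of the 2 h mean to the 6 h mean was 5.47 in control and 6.79 in tunicamycin leaves. Both tunicamycin libraries lay above both control libraries at each time. LOC101243956, cyclic dof factor 2, stood at 10.2 and 5.96 CPM in control leaves at 2 h and 0.856 and 0.472 CPM at 6 h, and at 14.7 and 10.001 CPM in tunicamycin leaves at 2 h and 1.44 and 0.837 CPM at 6 h, and again no 6 h library reached the 2 h range. The table held 4 cyclic dof factors above the 2 CPM limit. The rule fixed the order of the times for the 2 members. In the 2 others, too, every 6 h library lay below every 2 h library of its arm, as in 9.18% of the 15072 genes, and their log2 ratios were -2.54 to -0.99 in control and -1.94 to -0.80 in tunicamycin leaves.

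CIP1, a tomato protein named for its binding to CONSTANS proteins, stood at 229.6 and 157 CPM in control leaves at 2 h and 30.4 and 21.3 CPM at 6 h, and at 169.9 and 215 CPM in tunicamycin leaves at 2 h and 23.4 and 29.3 CPM at 6 h. The arms overlapped at both times. The other 6 CONSTANS interacting proteins of the table had log2 ratios of -0.51 to 0.26 in control leaves and -0.32 to 0.66 in tunicamycin leaves. LOC101244909 encodes LNK1 and stood at 47.3 and 58.8 CPM in control leaves at 2 h and 7.94 and 13.9 CPM at 6 h, and at 46.9 and 65.2 CPM in tunicamycin leaves at 2 h and 5.91 and 7.35 CPM at 6 h. Its 2 h ranges overlapped between the arms, while both tunicamycin libraries lay below both control libraries at 6 h. The other LNK gene of the table was not a member but also had all 6 h libraries below all 2 h libraries, with log2 ratios of -1.54 in control and -3.22 in tunicamycin leaves.

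Of 15 CONSTANS-like genes above the limit, 2 were members. LOC100191137, a CONSTANS-like protein, stood at 12.8 and 6.75 CPM in control leaves at 2 h and 0.856 and 1.54 CPM at 6 h, and at 37.5 and 7.81 CPM in tunicamycin leaves at 2 h and 2.36 and 1.79 CPM at 6 h, and tunicamycin 2 h replicate 1 was the high library. LOC101265452, CONSTANS-LIKE 4, stood at 12.4 and 7.22 CPM in control leaves at 2 h and 1.71 and 2.22 CPM at 6 h, and at 13.7 and 6.88 CPM in tunicamycin leaves at 2 h and 1.42 and 1.08 CPM at 6 h. The 13 others spread from -2.03 to 1.46 in control leaves on the log2 scale, with a median of -0.26, and from -1.98 to 0.90 in tunicamycin leaves, with a median of 0.39. Dof22, a Dof zinc finger protein, and ARS1, a MYB factor that takes part in the salt response of tomato, were the remaining members of the group. Dof22 had 2 h means 4.76 and 5.39 times those at 6 h in control and tunicamycin leaves, and ARS1 4.87 and 6.69 times.

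Light perception and photosynthesis gave 8 members. FBA1, fructose-bisphosphate aldolase, an enzyme of the Calvin cycle and of glycolysis, stood at 396 and 351 CPM in control leaves at 2 h and 74.1 and 67.5 CPM at 6 h, and at 422 and 340.0 CPM in tunicamycin leaves at 2 h and 72.7 and 46.5 CPM at 6 h. The libraries of a time lay close together in both arms. Its 6 relatives above the limit had log2 ratios of -0.83 to 0.79 over both arms. LOC101250725, Rubisco activase 1, stood at 178 and 84.4 CPM in control leaves at 2 h and 4.23 and 12.9 CPM at 6 h, and at 106 and 170.5 CPM in tunicamycin leaves at 2 h and 6.70 and 13.03 CPM at 6 h, a ratio of means of 15.3 in control and 13.998 in tunicamycin leaves. The 2 other Rubisco activase genes had log2 ratios from -1.48 to 0.11 in the 2 arms.

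Chlorophyll a-b binding proteins gave 3 members. LOC101265886, protein 1C, stood at 163 and 96.2 CPM in control leaves at 2 h and 14.2 and 26.3 CPM at 6 h, and at 184 and 484 CPM in tunicamycin leaves at 2 h and 8.35 and 27.4 CPM at 6 h, and the highest library was tunicamycin 2 h replicate 2. Cab-1D stood at 156 and 94.3 CPM in control leaves at 2 h and 15.2 and 31.7 CPM at 6 h, and at 144 and 293 CPM in tunicamycin leaves at 2 h and 13.3 and 30.96 CPM at 6 h, with the same library highest. LOC101263969, protein 1B, stood at 374 and 324 CPM in control leaves at 2 h and 39.9 and 54.2 CPM at 6 h, and at 237 and 332 CPM in tunicamycin leaves at 2 h and 29.4 and 91.3 CPM at 6 h. These 3 genes are close neighbours in the RefSeq annotation of assembly SLM_r2.1, with 1 annotated gene between proteins 1B and 1C and 2 between 1C and Cab-1D. Near-identical coding sequences are common in this family, and how the authors' counting divided reads among such copies is not given, so their levels may not be independent of each other. Of the 17 chlorophyll a-b binding genes, 15 had a lower mean at 6 h in both arms, and in 10 all 6 h libraries lay below all 2 h libraries. The share of all eligible genes was 37.1% for the first measure and 9.18% for the second, and both measures come from the contrast that chose the members.

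LOC101248324 encodes a protein named after UVR8, the receptor of ultraviolet-B light, and stood at 31.1 and 26.8 CPM in control leaves at 2 h and 1.66 and 2.47 CPM at 6 h, and at 41.9 and 48.6 CPM in tunicamycin leaves at 2 h and 3.24 and 2.69 CPM at 6 h. Every tunicamycin library lay above both control libraries of its time. It has 5 annotated genes between it and Rubisco activase 1 in the same assembly. Its 8 relatives in name had log2 ratios of -0.65 to 1.06 over both arms. LOC101259171, root phototropism protein 2, which acts in the bending of Arabidopsis organs towards blue light, stood at 106 and 118 CPM in control leaves at 2 h and 17.6 and 25.4 CPM at 6 h, and at 204 and 146 CPM in tunicamycin leaves at 2 h and 34.8 and 27.02 CPM at 6 h. LOC101248189, a kinase-like chloroplast protein of the ABC1 family, had 2 h means only 2.82 and 3.86 times those at 6 h.

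**Figure D2:**
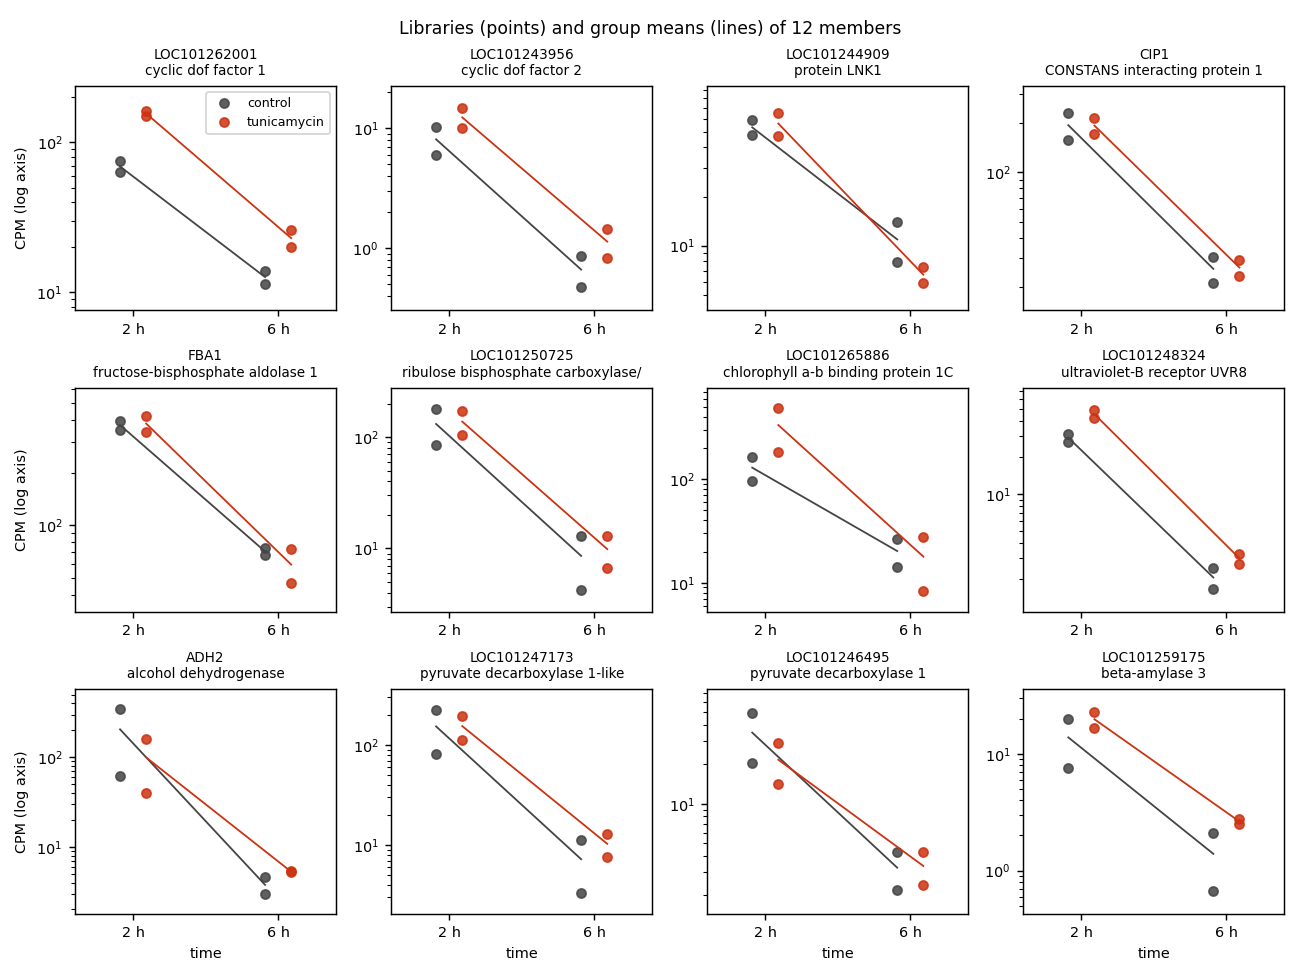
Levels in CPM on a log axis of members named in the text, 1 panel for each gene, with 1 point for each library. The x axis gives 2 h and 6 h, the arms are set apart by colour, and lines join the group means. The points of 6 h lie below those of 2 h in both arms, and ADH2 shows the widest distance between the 2 control libraries of 2 h, at 349 and 62.2 CPM.

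Fermentation was represented by the 2 pyruvate decarboxylase genes above the limit and by ADH2. ADH2, alcohol dehydrogenase, stood at 349 and 62.2 CPM in control leaves at 2 h and 4.56 and 2.97 CPM at 6 h, and at 39.99 and 159.7 CPM in tunicamycin leaves at 2 h and 5.31 and 5.26 CPM at 6 h. Its 2 h libraries ranged widely, with control replicate 1 the highest and tunicamycin replicate 1 the lowest, yet all lay above the 6 h range. The ratio of means was 54.6 in control and 18.9 in tunicamycin leaves. LOC101247173, pyruvate decarboxylase 1-like, stood at 225 and 82.2 CPM in control leaves at 2 h and 11.1 and 3.32 CPM at 6 h, and at 113 and 196 CPM in tunicamycin leaves at 2 h and 12.9 and 7.65 CPM at 6 h. LOC101246495, pyruvate decarboxylase 1, stood at 49.5 and 20.6 CPM in control leaves at 2 h and 4.28 and 2.19 CPM at 6 h, and at 14.2 and 29.2 CPM in tunicamycin leaves at 2 h and 4.28 and 2.39 CPM at 6 h. In all 3 genes the shallower library was the higher one in both arms at 2 h. The 6 other genes named alcohol dehydrogenase had log2 ratios of -1.42 to 0.35 in control leaves and -0.67 to 0.86 in tunicamycin leaves.

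Beta-amylases release maltose from starch. bmy3 stood at 27.7 and 26.5 CPM in control leaves at 2 h and 7.89 and 10.2 CPM at 6 h, and at 45.9 and 48.4 CPM in tunicamycin leaves at 2 h and 18.1 and 14.9 CPM at 6 h, the flattest time difference of the set in tunicamycin leaves. Both tunicamycin libraries lay above both control libraries at each time. LOC101259175, beta-amylase 3-like of the chloroplast, stood at 20.04 and 7.60 CPM in control leaves at 2 h and 0.666 and 2.12 CPM at 6 h, and at 22.99 and 16.6 CPM in tunicamycin leaves at 2 h and 2.75 and 2.51 CPM at 6 h. The 5 other beta-amylase genes had log2 ratios of -0.16 to 0.43 in control leaves and -0.71 to 0.49 in tunicamycin leaves.

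**Figure D3:**
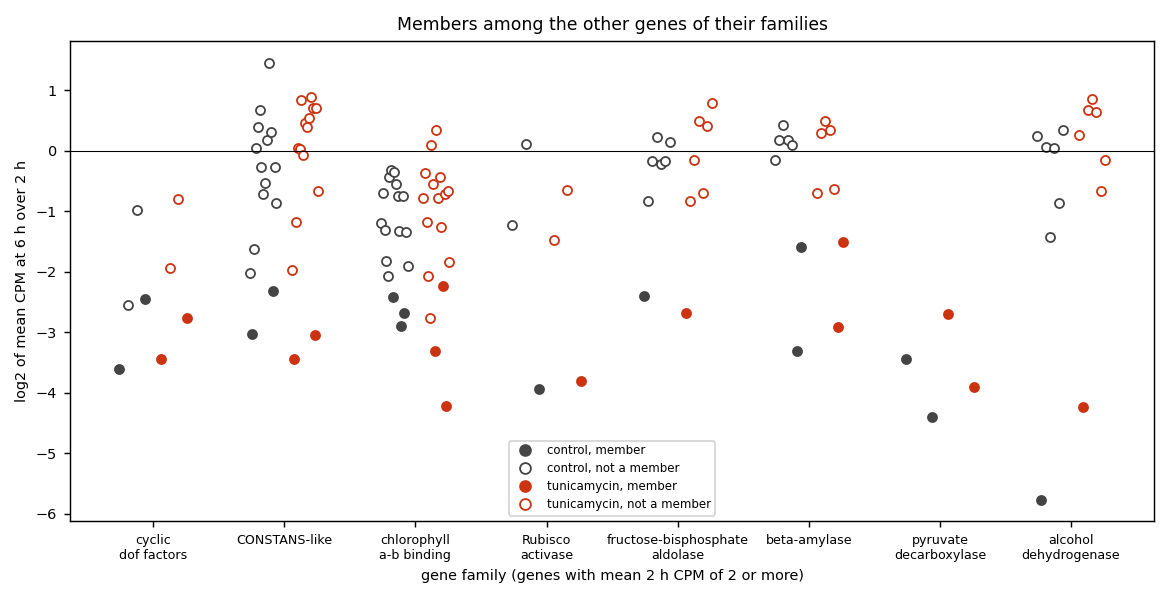
Log2 ratio of mean CPM at 6 h to mean CPM at 2 h for genes of the families that hold members, 1 point for each gene with a mean of at least 2 CPM at 2 h, with control leaves in black and tunicamycin leaves in red, members as filled and other genes as open circles. The other cyclic dof factors lie below zero with the members, while the other beta-amylases lie between -0.71 and 0.49.

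Proteins of the cuticle, cell wall and cell surface gave 10 members. LOC100147717, PELPK1, a cell wall protein, stood at 284 and 115 CPM in control leaves at 2 h and 11.8 and 12.7 CPM at 6 h, and at 113 and 435 CPM in tunicamycin leaves at 2 h and 9.07 and 29.4 CPM at 6 h, and the shallower library was the higher at 2 h in both arms. Dea1 stood at 111 and 131 CPM in control leaves at 2 h and 39.8 and 12.7 CPM at 6 h, and at 75.6 and 147 CPM in tunicamycin leaves at 2 h and 26.6 and 20.9 CPM at 6 h. LOC101254214, the proline-rich protein DC2.15, stood at 78.9 and 94.2 CPM in control leaves at 2 h and 21.97 and 10.7 CPM at 6 h, and at 73.2 and 106 CPM in tunicamycin leaves at 2 h and 8.32 and 10.999 CPM at 6 h. These 3 had the highest CPM of the group, with overlapping arms at 2 h.

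LOC101257976, a glycine-rich cell wall protein, stood at 9.38 and 11.7 CPM in control leaves at 2 h and 1.71 and 0.562 CPM at 6 h, and at 3.23 and 1.25 CPM in tunicamycin leaves at 2 h and 0.327 and 0.478 CPM at 6 h. Its tunicamycin libraries lay below both control libraries at each time. LOC101255877, a defensin (a small antimicrobial peptide), had 30 and 136 counts in control leaves at 2 h and 6 and 20 at 6 h, and 167 and 8 counts in tunicamycin leaves at 2 h and 6 and 0 at 6 h. Its ratio of means, the largest of the set in tunicamycin leaves at 76.5, thus rests on 6 counts in all at 6 h. CYP77A20 belongs to a cytochrome P450 family whose Arabidopsis members make cutin monomers, and HOTHEAD (LOC101244002) is needed for a normal cuticle in Arabidopsis. CYP77A20 stood at 4.69 and 1.75 CPM in control leaves at 2 h and 0.0951 and 0.244 CPM at 6 h, and at 2.60 and 0.938 CPM in tunicamycin leaves at 2 h and 0.131 and 0 CPM at 6 h, and LOC101244002 at 3.84 and 2.48 CPM in control leaves at 2 h and 0.618 and 0.424 CPM at 6 h, and at 1.93 and 1.56 CPM in tunicamycin leaves at 2 h and 0.196 and 0 CPM at 6 h. LOC101246755, a CASP-like membrane protein, had ratios of means of 6.61 and 18.3 in control and tunicamycin leaves. The GDSL esterase/lipase genes LOC101266652 and LOC101244789 had ratios of 12.3 and 7.86 in control leaves and 10.9 and 26.6 in tunicamycin leaves. Of 35 GDSL genes above the limit, these 2 included, 19 had a lower mean at 6 h in both arms, against 37.1% of all eligible genes. That measure comes from the contrast that chose the members, and the family was looked at because it holds members.

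Redox, stress and other enzymes gave 8 members. LOC101245588, a universal stress protein A-like protein, stood at 194 and 129 CPM in control leaves at 2 h and 13.9 and 33.2 CPM at 6 h, and at 351 and 252 CPM in tunicamycin leaves at 2 h and 32.6 and 18.3 CPM at 6 h. LOC101245874 encodes peroxygenase 5, of the caleosin type that oxidises lipids with peroxides, and stood at 146 and 95.9 CPM in control leaves at 2 h and 15.5 and 29.7 CPM at 6 h, and at 256 and 88.8 CPM in tunicamycin leaves at 2 h and 33.3 and 17.1 CPM at 6 h. PSR, phosphosulfolactate synthase-related protein, stood at 52.9 and 39.9 CPM in control leaves at 2 h and 11.2 and 4.39 CPM at 6 h, and at 107 and 90.2 CPM in tunicamycin leaves at 2 h and 15.6 and 5.20 CPM at 6 h. In PSR and LOC101245588 both tunicamycin libraries lay above both control libraries at 2 h, and in all 3 genes the arms overlapped at 6 h. LOC101258987 is a cytosolic ascorbate peroxidase, which removes hydrogen peroxide, and stood at 29.6 and 37.1 CPM in control leaves at 2 h and 3.47 and 4.94 CPM at 6 h, and at 53.3 and 39.2 CPM in tunicamycin leaves at 2 h and 6.39 and 3.83 CPM at 6 h. Its 8 relatives had log2 ratios of -0.73 to 0.61 over both arms. LOC101252103, a glutaredoxin domain protein, stood at 19.6 and 6.75 CPM in control leaves at 2 h and 1.52 and 1.92 CPM at 6 h, and at 24.3 and 24.1 CPM in tunicamycin leaves at 2 h and 4.11 and 3.95 CPM at 6 h. LOC101259708, a dnaJ co-chaperone, and LOC101260645, a copper transporter, had ratios of 3.95 and 5.41 in control leaves. LOC101248628, a dioxygenase named after an Arabidopsis gene whose product oxidises jasmonate, had ratios of 21.001 and 22.6 in the 2 arms, from 6 h levels of at most 0.305 CPM.

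The last group held 6 genes of RNA binding, trafficking and other roles. LOC101260454, a FAM32A-like protein, stood at 2.99 and 2.61 CPM in control leaves at 2 h and 0.761 and 0.733 CPM at 6 h, and at 20.4 and 8.44 CPM in tunicamycin leaves at 2 h and 2.37 and 0.598 CPM at 6 h, and its tunicamycin libraries were the high ones at 2 h. LOC101262309 is named after BIG GRAIN 1, a rice protein that raises grain size, and stood at 0.853 and 2.31 CPM in control leaves at 2 h and 0.0951 and 0.293 CPM at 6 h, and at 14.2 and 3.44 CPM in tunicamycin leaves at 2 h and 1.10 and 0.717 CPM at 6 h. Both tunicamycin libraries lay above both control libraries at each time. LOC101250408, RNA-binding protein 42, stood at 23.03 and 16.7 CPM in control leaves at 2 h and 2.996 and 5.45 CPM at 6 h, and at 27.6 and 37.7 CPM in tunicamycin leaves at 2 h and 10.7 and 6.04 CPM at 6 h, with the same order at both times. ACI112, LOC101251083 (the RNA-binding protein ARP1) and LOC101258647 (Rab7, a regulator of traffic to the vacuole) had ratios of 4.16, 9.35 and 4.69 in control leaves.

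Uncharacterized genes made up 13 of the 58. LOC101253603 had the lowest ratio of highest 6 h to lowest 2 h level in the worse arm, 0.0647, and stood at 19.2 and 12.4 CPM in control leaves at 2 h and 0.666 and 0.0977 CPM at 6 h, and at 8.16 and 6.56 CPM in tunicamycin leaves at 2 h and 0.425 and 0.239 CPM at 6 h. Its neighbour LOC101253915, with 1 annotated gene between them, was also a member. LOC101253915 had 6 and 0 counts in control leaves and 2 and 2 counts in tunicamycin leaves at 6 h. Another pair of uncharacterized members, LOC101255237 and LOC101249575, likewise had 1 annotated gene between them. These neighbours were picked out after their values were seen.

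Genes of the whole table were also sorted by words in their names, which do not always give the function. Members were 6 of 647 genes with redox words (0.927%), among them Rubisco activase 1 through the word oxygenase, and 3 of 246 with cell wall words (1.22%), among them bmy3 through the word glucan. They were 5 of 566 with words of transcription factors (0.883%), and CIP1 was 1 of these through the word CONSTANS. Chloroplast and chlorophyll words gave 4 of 598 (0.669%), and RNA and translation words 2 of 1158. The words kinase and receptor gave 2 of 969, which were LOC101248189 and the UVR8 gene. No member came from the words for ubiquitin ligases and F-box proteins (644 genes), proteases and inhibitors (282), glycosyltransferases (121) or hormones (93). Genes taken out beforehand by name, such as auxin, ethylene-responsive, WRKY, NAC and photosystem genes, are in none of these counts. The hormone count thus says nothing of auxin or ethylene-responsive genes, and the transcription factor and chloroplast counts are likewise partial. The share over all genes was 0.385%, and these counts are a description of a small set. Just inside the threshold of 0.4 lay bmy3 at 0.395, LOC101259708 at 0.395 and LOC101245795 at 0.399. Just outside lay LOC101251856 at 0.404, LOC101261422 (chlorophyllide a oxygenase, which makes chlorophyll b) at 0.407 and DDTFR8 at 0.409.

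The comparison of tunicamycin with control leaves at each time was not used to choose the members, although it draws on the same libraries. With edgeR's quasi-likelihood test on all 34483 transcripts kept, called at a Benjamini-Hochberg adjusted p under 0.05, no member was called at 2 h, where 0.0464% of transcripts were called (0.0029% higher and 0.0435% lower with tunicamycin), and none at 6 h, where 0.322% were called (0.0203% higher and 0.302% lower). At an unadjusted p under 0.05, 13 of the 58 members (22.4%) passed at 2 h, 12 of them higher with tunicamycin, against 7.25% of all transcripts. Without control 2 h replicate 2 only 6 members passed, 3 of them higher, and without tunicamycin 2 h replicate 1 there were 8, 7 of them higher. At 6 h 11 members (19.0%) passed, 6 of them higher, against 4.07% of all transcripts. That split was 10 higher of 12 without control 6 h replicate 1 and 3 higher of 9 without tunicamycin 6 h replicate 2. The members' median log2 difference was 0.34 at 2 h and 0.16 at 6 h, against 0.03 over all transcripts at each time. The median at 2 h was 0.61 between the deeper libraries and -0.03 between the shallower ones, and at 6 h it was 0.08 and -0.06, so it did not hold at both depths. Without control 2 h replicate 2 the median at 2 h was 0.06, and without tunicamycin 6 h replicate 1 that at 6 h was -0.13.

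Both tunicamycin libraries lay above both control libraries for 19 members at 2 h (32.8%, against 17.0% of eligible genes) and below them for 10 (17.2%, against 23.7%). At 6 h they lay above for 13 members (22.4%, against 13.1%) and below for 9 (15.5%, against 9.83%). Above at both times were 9 members (15.5%, against 2.81% of eligible genes), and below at both times 4 (6.9%, against 5.15%). The same libraries chose the members.

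Cyclic dof factor 1 (LOC101262001) gave a log2 difference of 1.23 ± 0.34 (SE, n = 2 against 2, edgeR adjusted p = 0.287, unadjusted p = 0.00262) at 2 h and a log2 difference of 0.89 ± 0.34 (SE, n = 2 against 2, edgeR adjusted p = 0.754, unadjusted p = 0.0189) at 6 h. DESeq2 called it at 2 h (adjusted p = 0.0460), and over all alternatives its adjusted p at 2 h ran from 0.0460 to 0.923 with a log2 difference of 1.10 to 1.32. The group of 8 regulators of daily time was sorted after the members were seen. It includes Dof22 (log2 difference of 0.69 at 2 h) and ARS1 (0.82), whose part in daily time was not tested. In the fit over all libraries, all 8 had log2 differences above zero at 2 h, with a median of 0.69. Of all transcripts, 52.3% were above zero. CIP1 (0.05), LNK1 (0.12) and CONSTANS-LIKE 4 (0.17) lay within their standard errors of zero. Between the deeper libraries 7 of the 8 were above zero at 2 h, and between the shallower ones 6. At 6 h 6 of 8 were above zero, with a median of 0.36, against 52.9% of all transcripts. LOC101260454, FAM32A-like, gave a log2 difference of 2.43 ± 0.59 (SE, n = 2 against 2, edgeR adjusted p = 0.223, unadjusted p = 0.000949) at 2 h. It was called there by DESeq2 (adjusted p = 0.0112) and with no filter on low counts (adjusted p = 0.00344), within a range of 0.00344 to 0.923 over the alternatives. Its log2 difference ran from 1.67, without tunicamycin 2 h replicate 1, to 2.90, and was 1.59 between the shallower libraries. LOC101262309, BIG GRAIN 1-like, gave a log2 difference of 2.39 ± 0.72 (SE, n = 2 against 2, edgeR adjusted p = 0.399, unadjusted p = 0.00506) at 2 h and a log2 difference of 2.04 ± 0.77 (SE, n = 2 against 2, edgeR adjusted p = 0.743, unadjusted p = 0.0183) at 6 h, and was called at 2 h with no filter (adjusted p = 0.0294, range 0.0294 to 1). At 2 h its log2 difference dropped to 1.08 without tunicamycin 2 h replicate 1 and was 3.42 without control 2 h replicate 2. At 6 h it was 1.69 when control 6 h replicate 1 was left out and 3.14 when replicate 2 of that group was. bmy3 gave a log2 difference of 0.85 ± 0.29 (SE, n = 2 against 2, edgeR adjusted p = 0.496, unadjusted p = 0.0116) at 2 h and a log2 difference of 0.87 ± 0.29 (SE, n = 2 against 2, edgeR adjusted p = 0.534, unadjusted p = 0.00998) at 6 h, where its p was the lowest of the members, and no alternative called it. The glutaredoxin domain gene LOC101252103 gave a log2 difference of 1.21 ± 0.45 (SE, n = 2 against 2, edgeR adjusted p = 0.717, unadjusted p = 0.0171) at 6 h.

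Of the 10 cuticle and cell wall members, a group sorted after the members were seen, none was called in edgeR. At 2 h 3 were above zero, with a group median log2 difference of -0.64, and at 6 h 2 were, with a median of -1.32. Between the deeper libraries 4 were above zero at 2 h and 1 at 6 h, and between the shallower ones 3 and 2. The glycine-rich gene LOC101257976 gave a log2 difference of -2.12 ± 0.66 (SE, n = 2 against 2, edgeR adjusted p = 0.401, unadjusted p = 0.00568) at 2 h and was called there with no filter (adjusted p = 0.0423, range 0.0423 to 0.923), with log2 differences from -3.01, without tunicamycin 2 h replicate 1, to -1.70. The CASP-like gene LOC101246755 gave a log2 difference of -2.03 ± 0.71 (SE, n = 2 against 2, edgeR adjusted p = 0.6, unadjusted p = 0.0125) at 6 h, and the GDSL gene LOC101244789 a log2 difference of -2.32 ± 0.83 (SE, n = 2 against 2, edgeR adjusted p = 0.649, unadjusted p = 0.0143). The value of LOC101246755 was -0.87 without control 6 h replicate 1, went to -3.11 when tunicamycin 6 h replicate 1 was left out, and was -0.50 between the deeper libraries. The 6 genes of the group with the lowest mean CPM at 2 h, singled out after their values were seen, ranged from -1.82 to -0.50 between the deeper libraries at 6 h and from -4.001 to -1.65 between the shallower ones. Of those 6 genes, 3 had no count in tunicamycin 6 h replicate 2, the library richest in ribosomal RNA. Epidermis markers summed to 411 and 337 CPM in control leaves at 6 h and to 382 and 304 CPM in tunicamycin leaves.

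**Figure D4:**
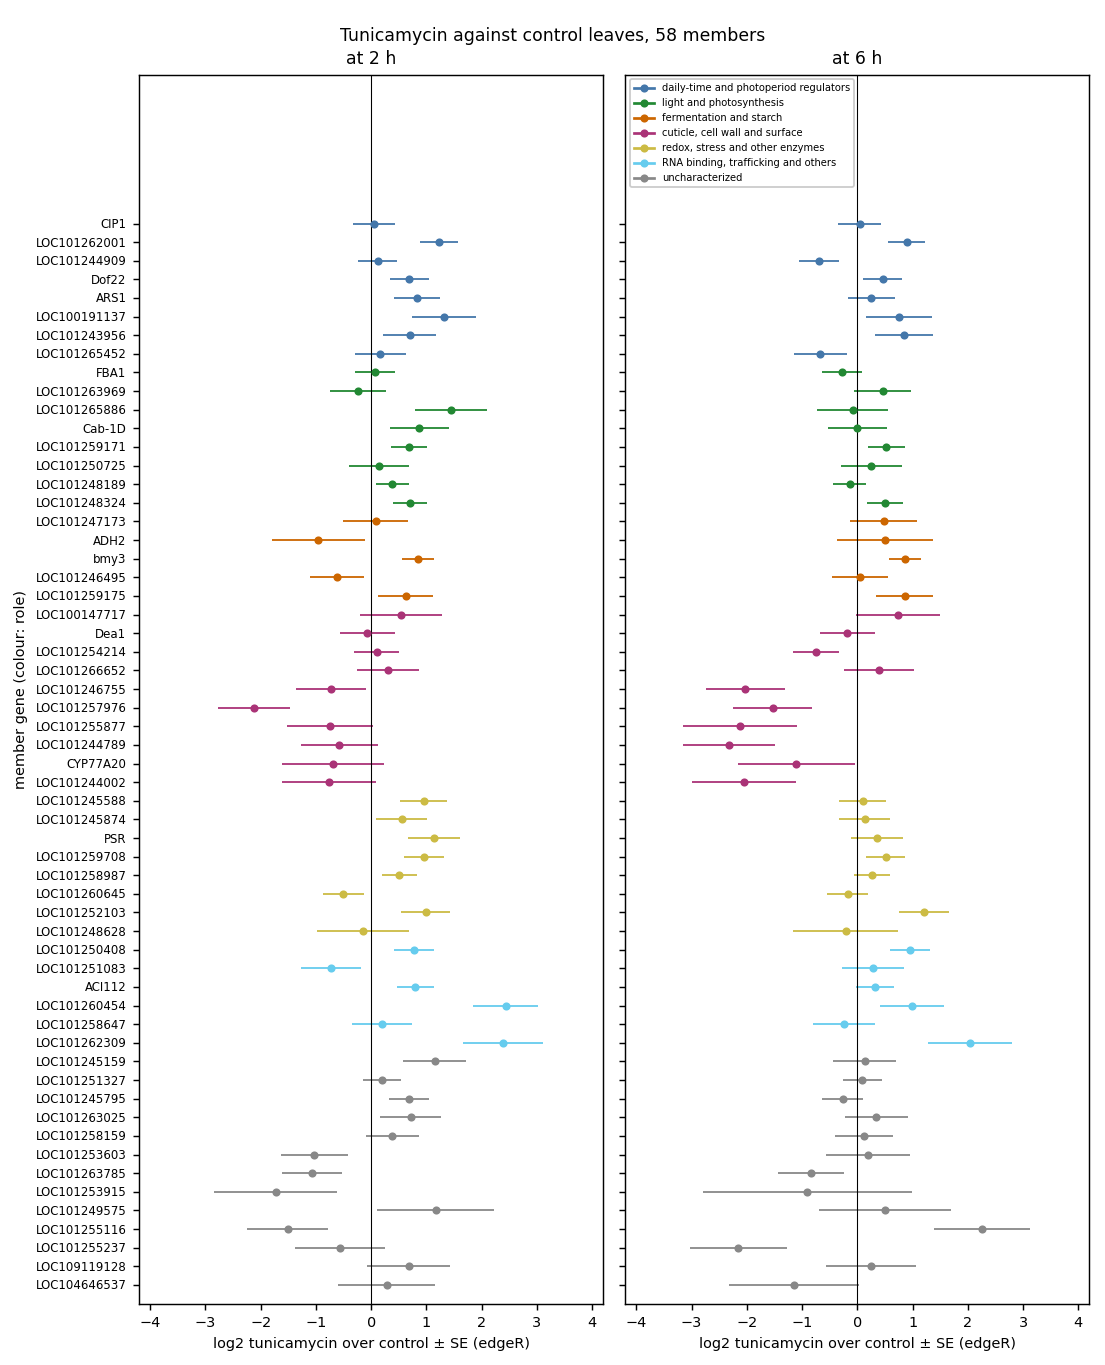
Log2 difference of tunicamycin from control leaves with its standard error from edgeR for each of the 58 members, at 2 h (left) and at 6 h (right), coloured by role. No member passed the adjusted threshold. At 2 h the regulators of daily time lie at or above zero, and at 6 h 2 of the 10 cuticle and cell wall genes lie above zero.

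Whether the time difference itself differed between the arms was tested as the difference of the tunicamycin effect between 6 h and 2 h. For the members this test is not separate from the rule, which used the time difference of each arm. The 80 genes that met the ratio in control leaves alone and the 123 in tunicamycin leaves alone were left out. The members' values and counts in this contrast therefore only describe the chosen set. By edgeR no transcript of the table was called (0.0%), and 761 (2.21%) had an unadjusted p under 0.05, among them 1 member. That member was the uncharacterized LOC101255116, at 11.1 and 2.99 CPM in control leaves at 2 h and 0.0951 and 0.114 CPM at 6 h, and at 2.38 and 2.19 CPM in tunicamycin leaves at 2 h and 0.359 and 0.717 CPM at 6 h. It had a log2 value of 3.76 ± 1.14 (SE, edgeR adjusted p = 1.00, unadjusted p = 0.00493), with tunicamycin libraries below control libraries at 2 h and above them at 6 h. Over the alternatives its adjusted p ran from 0.219 to 1 and its log2 difference from 2.45 in limma-voom to 4.51 without control 2 h replicate 2. It was 1.59 between the deeper libraries alone and 4.79 between the shallower ones. The chlorophyll a-b binding gene LOC101265886 gave a log2 value of -1.52 ± 0.91 (SE, edgeR adjusted p = 1.00, unadjusted p = 0.123), LOC101260454 a log2 value of -1.44 ± 0.81 (SE, edgeR adjusted p = 1.00, unadjusted p = 0.0981) and LNK1 (LOC101244909) a log2 value of -0.82 ± 0.50 (SE, edgeR adjusted p = 1.00, unadjusted p = 0.126). The value of LOC101265886 was -0.63 without tunicamycin 2 h replicate 2 and -2.88 without tunicamycin 6 h replicate 2, and that of LOC101260454 was -0.71 without tunicamycin 2 h replicate 1 and -2.55 without tunicamycin 6 h replicate 1. The members' median was -0.34, against -0.02 over all transcripts, and it was -0.53 in the pair of deeper libraries and 0.01 in the shallower pair. A p that misses the threshold with 2 libraries a group does not show that the arms had the same time course.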

How the data were processed

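The deposited table holds raw read counts of transcripts, as whole numbers with no normalization by the authors, for 8 libraries in 4 groups of 2 taken from the labels. Per the submitters' processing notes, reads were trimmed with Trimmomatic 0.40. The aligner, counting program, genome build, annotation and use of strand are not given in the labels or the file. How reads of near-identical or antisense genes were divided is therefore not known. The authors' own comparison tables were not used. Levels are CPM by column sum. Tests used edgeR 4.0.16 in R 4.3.3: filterByExpr with a minimum count of 10, TMM scaling, 1 mean per group, a robust quasi-likelihood fit (residual degrees of freedom 4), 2-sided, Benjamini-Hochberg over all 34483 transcripts. The fit was tested on simulated data. Alternatives were DESeq2 1.42.0, limma-voom (limma 3.58.1), no filter, other scalings, a depth term, a replicate block and leaving out each library. The members and lists were chosen with earlier results of these data known, and roles and families were sorted after the members were seen. Named genes were the 20 members with the highest 2 h CPM and the 10 with the lowest ratio, the 3 highest of each class, the 5 smallest p per contrast and those beside the threshold; uncharacterized genes were mostly only counted, and those named as neighbours or beside the threshold were chosen after their values were seen. Gene names were matched to a RefSeq gene table of assembly SLM_r2.1 for 57 of 58 members. Replicate p-values measure only the spread between these samples.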

Additional observations from a re-analysis of the deposited data

How the results depend on the processing

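The rule gave 99 members at a ratio of 0.5, 35 at 0.3, and 68 to 94 when a library was left out. Leaving out a library can only lower a gene's ratio of highest 6 h to lowest 2 h level. Only the CPM minimum could then remove a member, so the higher counts are no check of the set. With TMM scaling it gave 59, of which 54 were shared. Those lost were the chlorophyll a-b binding gene LOC101263969, the glycine-rich gene LOC101257976, and the uncharacterized LOC101255237 and LOC101245795. At 2 h the count of called transcripts was 679 with no filter, 308 in DESeq2, 1 in limma-voom, 1 with transcripts summed to genes, 3 with the replicate block, 53 with a depth term, and 0 to 183 with a library left out. Members called there were 4 with no filter and 2 in DESeq2. With no filter these included the chlorophyll a-b binding gene LOC101265886 (log2 difference of 1.42, edgeR adjusted p = 0.0374). Its log2 difference at 2 h was 1.44 ± 0.65 (SE, edgeR adjusted p = 0.684) with the filter. It was 0.92 between the deeper libraries and 1.68 between the shallower ones. At 6 h the count was 597 with no filter, 396 in DESeq2, 72 with the replicate block, 38 with transcripts summed and 53 with the top transcript of each symbol, and 0 to 194 with a library left out. For the difference of the effects it was 93 with no filter and 0 to 38 with a library left out. The members' median log2 difference ran from 0.059 to 0.65 at 2 h and from -0.13 to 0.32 at 6 h with a library left out. It was 0.61 in the deeper and -0.025 in the shallower libraries at 2 h, -0.055 in the shallower at 6 h, and 0.008 in the shallower for the difference of the effects. The sign of the median thus changed in the shallower libraries for all 3 comparisons, and at 6 h without tunicamycin 6 h replicate 1. The cause of these shifts was not tested. Same-numbered libraries did not deviate together (correlations of -0.18 to 0.17). The deeper library had opposite numbers in the 2 arms, and each group had only 2 libraries. These values therefore cannot tell whether the numbers pair the samples. The fit with the replicate block called no member. The depth term called 161 transcripts at 6 h, and is there the same fit as a crossed pairing of the numbers, considered after seeing the data. With 2 libraries a group and up to 9.98 times the depth between them, members with few counts at 6 h are the least certain.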
